A study of Homo sapiens with 12 samples.

Results

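Structural noncoding RNAs with 7 names, RMRP, RPPH1, RN7SK, VTRNA1-1, VTRNA1-2, VTRNA1-3 and RNVU1-19, are described across 12 RNA sequencing libraries of a lymphoma line. They were picked from these same data for high values or for values seen with a single hairpin, and every row with one of these names is accounted for. Of the 7 names, 6 stood on 7 of the 24181 rows of the deposited table, and 5 of those rows, with 4 names, had a mean of at least 1 FPKM (sequenced fragments relative to the length of the transcript and to all mapped fragments of its library). RN7SK was not analysed here, because no row used carried the name. The levels of the members are given as a description without a test, since the hairpin and scramble values chose them.

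The cells were MD901, an established human line of diffuse large B-cell lymphoma (germinal centre type). CREBBP encodes a lysine acetyltransferase whose substrates include histones. In 3 groups a short hairpin RNA against CREBBP was used, shCREBBP.1027, shCREBBP.3753 or shCREBBP.572, and in the fourth a scramble hairpin, with 3 libraries per group. The first hairpin is named shCREBBP.1027 in the titles and shCREBBP.11027 in the descriptions. All groups grew in IMDM with 10% serum, and all libraries were stranded total RNA libraries with removal of ribosomal RNA, made from RNA over 200 nt. Nothing in the labels says that the 3 libraries of a group are separate cultures. The p-values therefore reflect the spread among these libraries alone, and that spread may be technical.

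RMRP is the RNA of RNase MRP, an enzyme that cuts precursor ribosomal RNA, and RPPH1 is the RNA of RNase P, which trims the 5′ ends of precursor tRNAs. These particles are evolutionary relatives and share most of their proteins. RN7SK holds the elongation factor P-TEFb in an inactive particle. Vault RNAs are short RNAs found partly in vaults, large barrel-shaped particles built from the major vault protein. RNVU1-19 is a variant of U1, the small nuclear RNA that pairs with the 5′ splice site at the start of splicing. RNA polymerase III transcribes all of these but the U1 family, which RNA polymerase II transcribes.

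The RNA sequences separate the members by length and by family. They are taken from GENCODE 29 (build GRCh38) and shown 5′ to 3′ as DNA letters, RPPH1 by its first 300 bases, because the members' lengths lie on both sides of the 200 nt limit of the extraction. The first pair is shown for how little these relatives share. Capitals mark the run of letters common to both, and no other run of 8 or more was shared.
RMRP: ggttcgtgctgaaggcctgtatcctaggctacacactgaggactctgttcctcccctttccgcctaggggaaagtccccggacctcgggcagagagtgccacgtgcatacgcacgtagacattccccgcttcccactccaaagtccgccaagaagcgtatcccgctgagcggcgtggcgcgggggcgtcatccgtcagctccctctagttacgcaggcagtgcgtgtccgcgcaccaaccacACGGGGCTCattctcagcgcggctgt
RPPH1: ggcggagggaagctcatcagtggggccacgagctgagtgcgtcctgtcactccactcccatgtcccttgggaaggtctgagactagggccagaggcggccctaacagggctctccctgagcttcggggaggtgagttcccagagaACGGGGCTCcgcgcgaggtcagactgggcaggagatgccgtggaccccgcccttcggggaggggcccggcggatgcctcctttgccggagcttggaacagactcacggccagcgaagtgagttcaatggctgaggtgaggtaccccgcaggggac

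The 3 vault RNAs are shown because they have the same promoter elements inside the RNA, yet only VTRNA1-1 had values above 0. Capitals mark GCNNAGNGG, a core of the A box, and GTTCGANNC, the core of the B box, where N is any base. Both elements are bound by the RNA polymerase III machinery in such genes.
VTRNA1-1: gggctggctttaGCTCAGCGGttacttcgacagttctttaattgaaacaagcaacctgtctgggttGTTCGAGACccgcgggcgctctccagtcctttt
VTRNA1-2: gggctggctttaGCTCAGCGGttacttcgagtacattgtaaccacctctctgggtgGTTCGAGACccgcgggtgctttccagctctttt
VTRNA1-3: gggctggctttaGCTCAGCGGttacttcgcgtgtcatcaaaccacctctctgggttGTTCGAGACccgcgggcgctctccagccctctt

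RNVU1-19 is shown because its letters decide how far its values can be told from those of other U1 genes. Capitals mark ACTTACCTG, which pairs with the 5′ splice site, and AATTTGTGG, the site of the Sm protein ring.
RNVU1-19: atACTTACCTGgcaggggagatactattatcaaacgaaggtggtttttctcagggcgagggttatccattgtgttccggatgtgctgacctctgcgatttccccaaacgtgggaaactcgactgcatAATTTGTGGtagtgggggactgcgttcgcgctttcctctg

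RMRP has 268 nt and RPPH1 has 333 nt, so both are longer than the 200 nt limit. VTRNA1-1 with 99 nt, VTRNA1-2 and VTRNA1-3 with 89 nt each, and RNVU1-19 with 167 nt lie under it. RMRP and RPPH1 are rich in G and C, at 63.1% and 64.6%, and their global alignment was identical at 182 of 344 columns (52.9%). The vault RNAs share their first 29 bases and were 81.8% to 87.8% identical in pairs, with VTRNA1-2 and VTRNA1-3 the most alike. In each of them the A box matches at positions 13 to 21, and the B box lies at 67 to 75 in VTRNA1-1 and at 57 to 65 in the other two. Among the 8593 GENCODE transcripts of up to 200 nt, 5 (0.0582%) held both of these boxes on the RNA strand, which was the strand searched. The 3 vault RNAs are among these 5. Of the same transcripts 22 (0.256%) held both U1 motifs, RNVU1-19 among them. RNVU1-19 was 59.5% to 92.2% identical to 14 other U1 genes, 7 of them at 90% or more, and 5 were tied as the most alike, RNU1-1, RNU1-2, RNU1-3, RNU1-4 and RNVU1-18. Reads from such near-identical copies may have been divided between rows, so the RNVU1-19 values are uncertain.

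The libraries are described before the values that rest on them. The total of FPKM over all rows was 538076 to 722976 in 11 libraries and 4978528 in scramble replicate 3, where 6 loci that were listed at 0 elsewhere held 203523 to 894692 FPKM. The number of reads is not known from FPKM. Depth estimated from the steps between low values, relative to scramble replicate 1, was 1.12 to 1.34 with shCREBBP.1027, from 1.32 to 2.02 for shCREBBP.3753 and from 1.25 to 1.43 for shCREBBP.572, against 1.16 and 3.64 in the other scramble libraries. The upper quartile of all rows was 9.82 to 10.9 FPKM in the 12 libraries. Of 8 B cell markers 7 had a mean of at least 1 FPKM, and their sum was 336 to 354 FPKM with shCREBBP.1027, 465 to 497 for shCREBBP.3753 and 291 to 308 for shCREBBP.572, against 350 to 418 with scramble. No T cell marker and no fibroblast or epithelial marker of 5 each reached that mean, with 1 of each list at 0 in all 12 libraries and sums of 0.116 to 1.41 and 0 to 7.22 FPKM. Of 5 myeloid markers 1 reached it, and their sum was 1.13 to 3.34 FPKM. Limma called 39.2% of the 11757 tested rows with shCREBBP.1027, 29.4% for shCREBBP.3753 and 19.8% for shCREBBP.572, each against scramble at an adjusted p under 0.05.

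CREBBP itself (chr16:3775056-3930121, hg19) went against the label of the first hairpin. It had 11.4, 11.7 and 12.6 FPKM in the libraries labelled shCREBBP.1027, 5.92, 6.16 and 6.10 FPKM with shCREBBP.3753 and 7.99, 7.53 and 6.91 FPKM with shCREBBP.572, against 13.7, 7.10 and 5.82 FPKM with scramble. No hairpin's difference from scramble passed the test, with 0.47 ± 0.21 (SE, limma adjusted p = 0.104) for shCREBBP.1027, -0.40 (0.177) for shCREBBP.3753 and -0.14 (0.697) for shCREBBP.572 on the log2(FPKM + 1) scale. Scramble replicate 1 held the highest value of its group, and leaving it out gave a shCREBBP.1027 difference of 0.80 (limma adjusted p = 8.25e-05). The shCREBBP.3753 difference was -0.07 without scramble replicate 1 (limma adjusted p = 0.59) and -0.63 without scramble replicate 3 (limma adjusted p = 0.0394). The shCREBBP.572 difference was 0.19 without scramble replicate 1 (limma adjusted p = 0.171), the opposite sign to that in all libraries. The groups are therefore named below by their labels, and no value is tied to a level of CREBBP.

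RMRP (chr9:35657748-35658015, hg19) was the row with the highest FPKM in 11 of the 12 libraries, and stood seventh in scramble replicate 3 after the 6 loci named above. It had 69679, 84107 and 81265 FPKM with shCREBBP.1027, 123405, 126962 and 123742 FPKM with shCREBBP.3753 and 85010.1, 79663 and 77660.4 FPKM with shCREBBP.572, against 57204, 79396 and 87582 FPKM with scramble. The shCREBBP.3753 libraries lay above all others, and the libraries of the other hairpins lay within the scramble range. The means were 78349.9 ± 7643 with shCREBBP.1027, 124703 ± 1964 for shCREBBP.3753 and 80778 ± 3799.6 for shCREBBP.572, against 74728 ± 15718 with scramble (SD, n = 3 each). The mean with shCREBBP.3753 was 1.67 times the scramble mean, and the other ratios were 1.05 with shCREBBP.1027 and 1.08 with shCREBBP.572. In order of the mean, shCREBBP.3753 stood first, and shCREBBP.572, shCREBBP.1027 and scramble followed with differences smaller than the scramble SD. On the log2(FPKM + 1) scale the shCREBBP.3753 difference was 0.76 ± 0.24 (SE). It was 0.58 without scramble replicate 1 and 0.89 without scramble replicate 3, the smallest and largest values when 1 library was left out. The B cell marker sum was also higher in every shCREBBP.3753 library than in every scramble library (465 to 497 against 350 to 418 FPKM), and the part of this in the RMRP values was not tested. In bulk libraries like these, fewer cells with an RNA and less of it per cell cannot be told apart.

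RPPH1 (chr14:20810569-20826931, hg19) was second after RMRP in the same 11 libraries and eighth in scramble replicate 3. It had 46983, 67159 and 57268 FPKM with shCREBBP.1027, 26382, 27052 and 28904 FPKM with shCREBBP.3753 and 22240.2, 19967 and 20531 FPKM with shCREBBP.572, against 20202, 26719 and 29269 FPKM with scramble. Here the shCREBBP.1027 libraries were the high ones, each above every library of the other groups. The shCREBBP.3753 libraries lay within the scramble range, and those of shCREBBP.572 lay at its low end, overlapping it. The means were 57137 ± 10089 with shCREBBP.1027, 27446 ± 1306 for shCREBBP.3753 and 20913 ± 1184 for shCREBBP.572, against 25397 ± 4676 with scramble (SD, n = 3 each), which gave ratios to scramble of 2.25, 1.08 and 0.823. On the log2(FPKM + 1) scale the shCREBBP.1027 difference was 1.17 ± 0.21 (SE), and it was 1.02 to 1.31 whichever library was left out. The assembled locus of RPPH1 has the same interval as the row of PARP2, a poly(ADP-ribose) polymerase gene that starts beside it. PARP2 had 19.8 ± 3.64 FPKM with shCREBBP.1027, 20.5 ± 1.64 for shCREBBP.3753 and 20.3 ± 2.13 for shCREBBP.572, against 21.3 ± 1.60 with scramble (SD, n = 3 each). All groups of PARP2 thus lay close together where RPPH1 did not.

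**Figure D1:**
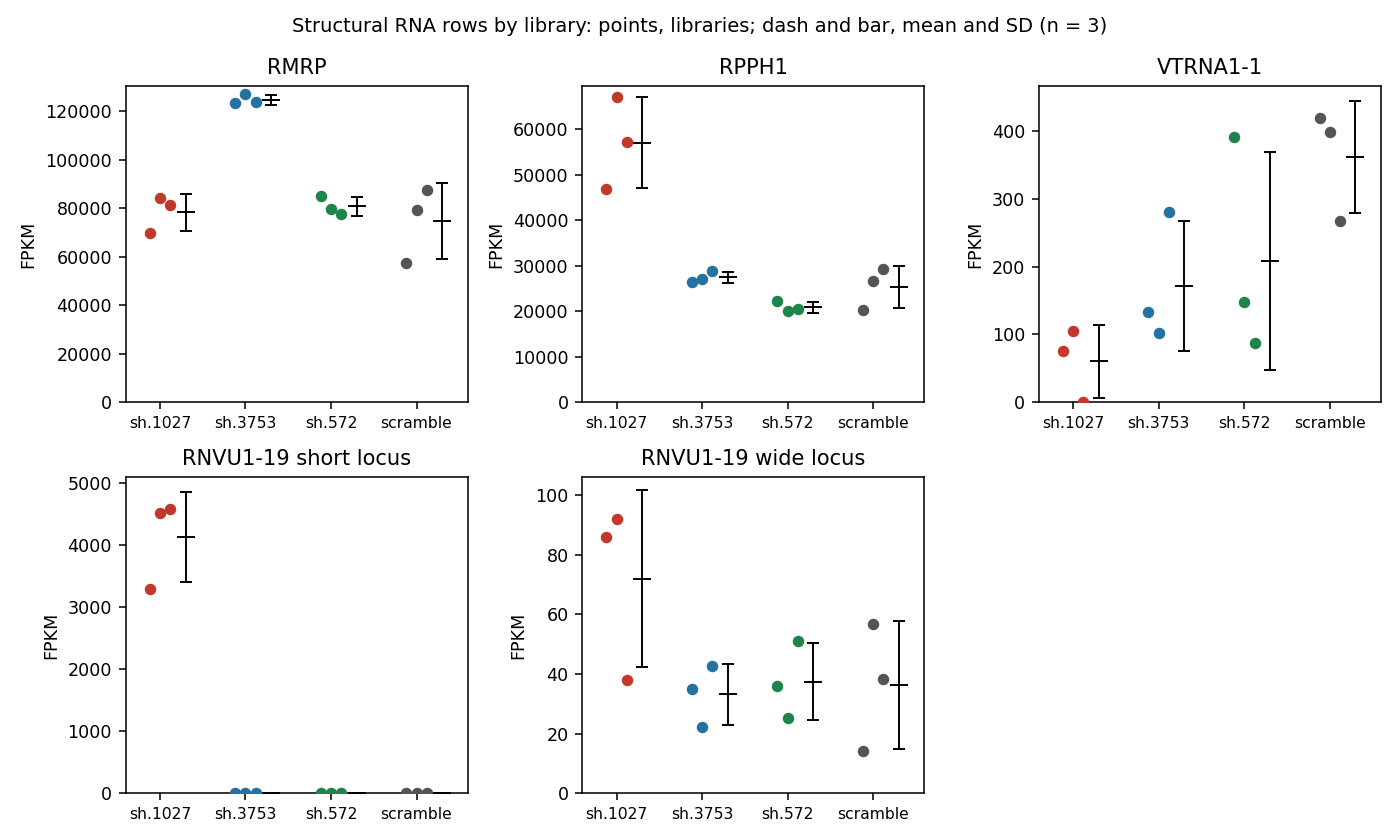
FPKM of the 5 member rows with a mean of at least 1, by group (shCREBBP.1027, shCREBBP.3753, shCREBBP.572, scramble). Each point is a library, and the dash with its bar is the mean and SD of 3. RMRP stands apart with shCREBBP.3753, RPPH1 and the short RNVU1-19 locus stand apart with shCREBBP.1027, and VTRNA1-1 is highest on average with scramble.

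The ratio of RPPH1 to RMRP needs no scaling between libraries and separated the groups more sharply than either level. It was 0.674, 0.799 and 0.705 with shCREBBP.1027, 0.214, 0.213 and 0.234 for shCREBBP.3753 and 0.262, 0.251 and 0.264 for shCREBBP.572, against 0.353, 0.337 and 0.334 with scramble. The 4 groups did not overlap, with shCREBBP.1027 above scramble and both other hairpins below it. Scramble replicates 1 and 3, which stand apart in other ways, differed by less here than the means of any 2 groups. The mean ratio was 0.726 ± 0.0648 with shCREBBP.1027, 0.220 ± 0.0116 for shCREBBP.3753 and 0.259 ± 0.00726 for shCREBBP.572, against 0.341 ± 0.0103 with scramble (SD, n = 3 each). RMRP and RPPH1 were picked from these data for high or hairpin-specific values, so the separation by their ratio is a description and no independent result. Of all rows 56.4% differed between the hairpins by limma's F test, and ratios of other rows were not examined.

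In shares of the FPKM total, taken without the 6 loci of scramble replicate 3, RMRP was again highest with shCREBBP.3753 and RPPH1 with shCREBBP.1027. These shares are the same FPKM values divided by a total that includes them. RMRP took 12.7% ± 0.619 with shCREBBP.1027, 17.8% ± 0.640 for shCREBBP.3753 and 12.4% ± 0.677 for shCREBBP.572, against 11.5% ± 0.816 with scramble (SD, n = 3 each). RPPH1 took 9.20% ± 0.996 with shCREBBP.1027, 3.91% ± 0.0973 for shCREBBP.3753 and 3.20% ± 0.179 for shCREBBP.572, against 3.91% ± 0.172 with scramble. A share of FPKM is not a share of reads, since FPKM divides by length and so raises short transcripts.

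**Figure D2:**
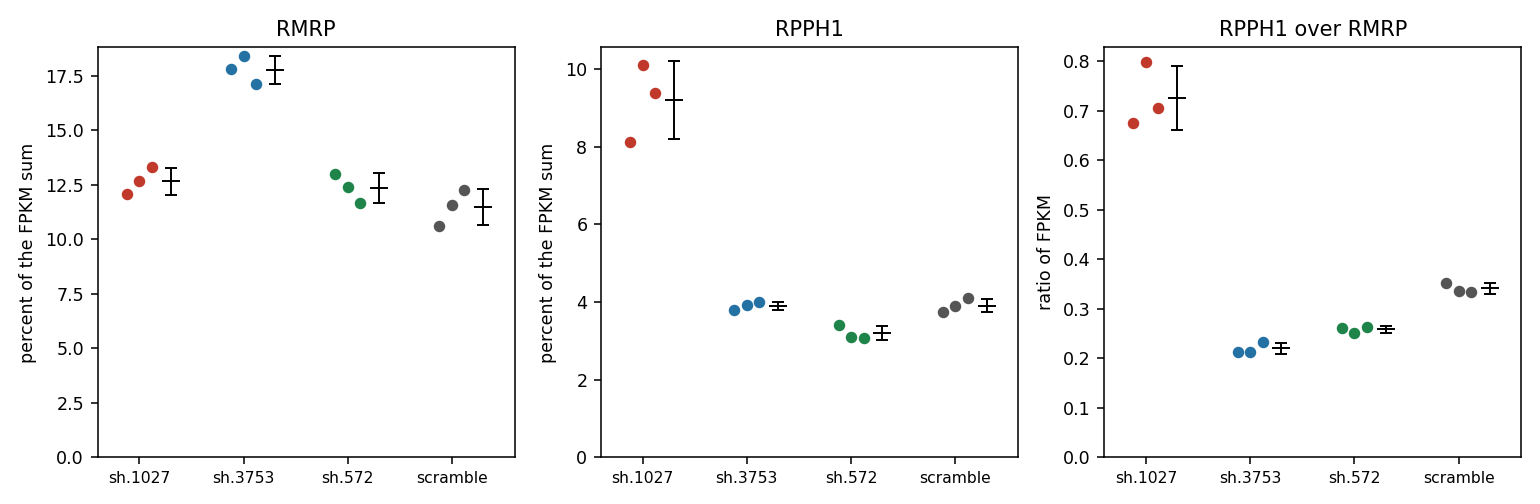
Share of each library's FPKM total held by RMRP and by RPPH1, in percent, and the ratio of RPPH1 to RMRP, by group; points are libraries, and the dash with its bar is the mean and SD of 3. The ratio runs from 0.674 to 0.799 with shCREBBP.1027 and stays at or under 0.353 in the other 9 libraries.

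VTRNA1-1 (chr5:140090861-140090958, hg19) had far lower levels than RMRP and RPPH1 and varied widely within each hairpin group. It had 75.2, 105 and 0 FPKM with shCREBBP.1027, 133, 102 and 281 FPKM with shCREBBP.3753 and 391, 148 and 86.7 FPKM with shCREBBP.572, against 420, 399 and 267 FPKM with scramble. Every shCREBBP.1027 library lay below every scramble library, whereas the other hairpins overlapped scramble. The means were 172 ± 95.8 with shCREBBP.3753 and 209 ± 161 with shCREBBP.572, against 362 ± 82.9 with scramble (SD, n = 3 each). No mean is given for shCREBBP.1027, since the 0 in its replicate 3 can be a failed estimate. On the log2(FPKM + 1) scale its difference from scramble was -4.15 ± 1.37 (SE) with that library and -1.99 without it, so 1 library set most of the size. The differences of -1.18 with shCREBBP.3753 and -1.05 with shCREBBP.572 were smaller than the SE of 1.37. That SE pools the spread of all 4 groups, the library at 0 included, so it does not measure the compared libraries alone. With 1 library left out the shCREBBP.3753 difference ran from -1.60 to -0.87 and the shCREBBP.572 difference from -1.64 to -0.56. VTRNA1-2 (chr5:140098511-140098598) and VTRNA1-3 (chr5:140105744-140105831), its neighbours on the chromosome, were listed at 0 in all 12 libraries.

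RNVU1-19 stood on a short and on a wide row, and these behaved differently. The short row (chr1:149514090-149514256, 167 bases, hg19) had 3301, 4525 and 4580.0 FPKM with shCREBBP.1027 and was listed at 0 in the 9 libraries of shCREBBP.3753, shCREBBP.572 and scramble. No fold is given against groups at 0. The wide row (chr1:147574323-149109725) had 86.0, 91.9 and 38.0 FPKM with shCREBBP.1027, 34.9, 22.3 and 42.6 FPKM with shCREBBP.3753 and 36.1, 25.2 and 51.2 FPKM with shCREBBP.572, against 14.1, 56.6 and 38.5 FPKM with scramble. On this row the groups overlapped, because shCREBBP.1027 replicate 3 lay among the scramble values although it was the highest of all on the short row. The means were 72.0 ± 29.6 with shCREBBP.1027, 33.3 ± 10.3 for shCREBBP.3753 and 37.5 ± 13.0 for shCREBBP.572, against 36.4 ± 21.3 with scramble (SD, n = 3 each). The log2 difference with shCREBBP.1027 was 1.07 ± 0.48 (SE), and it was 0.51 without scramble replicate 1. This row had the lowest mean of the 5 kept, and the rows left out, those of VTRNA1-2 and VTRNA1-3, were at 0.

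Values at short loci were rare in the whole table. Of 52 rows with an interval under 200 bases, 49 (94.2%) were at 0 in all 12 libraries, whereas 2579 of all 24181 rows (10.7%) were. The 3 short rows with any value were RNVU1-19, VTRNA1-1 and RNU6ATAC, and RNU6ATAC alone was above 0 in every library. A 0 at such a row cannot be read as absence of the RNA from the cells. The extraction kept RNA over 200 nt, and a value of exactly 0 may be an estimate that failed. Which of these lay behind the zeros was not tested.

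Other rows that varied over the 12 libraries in the way of a member were looked for by the root mean square difference of centred log2(FPKM + 1). CARD6 was nearest to RMRP at 0.0822, followed by the row of INO80B and WBP1 at 0.107 and CLK1 at 0.122, where a flat row lies at 0.336. Nearest to RPPH1 were TMEM5 at 0.177, TMCO1 at 0.183 and DGKG at 0.187, where a flat row lies at 0.569. TMEM5 averaged 15.6 FPKM with shCREBBP.1027, 9.44 for shCREBBP.3753 and 6.47 for shCREBBP.572, against 8.46 with scramble. The nearest rows to VTRNA1-1 lay farther off, with SNORA46 at 1.18, RNU12 at 1.54 and SNORA11B at 1.57 against 2.25 for a flat row. For the short RNVU1-19 row no near match was found, the closest being CSMD1 at 3.89, TMEM150A at 3.93 and C17orf104 at 4.12 against 5.20 for a flat row.

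The genes of the proteins that work with these RNAs were tested, because their values did not choose the members. Their lists, however, were chosen with earlier results of these data known. Of 67 such genes in 5 lists, 65 had a row that was tested. With shCREBBP.1027, 14 were higher than scramble and 10 lower, where 16.5% of all rows were higher and 22.7% lower. With shCREBBP.3753 10 were higher and 9 lower (all rows 16.1% and 13.2%), and with shCREBBP.572 2 were higher and 5 lower (all rows 8.99% and 10.8%). Between the hairpins 35 of the 65 differed by limma's F test, where 56.4% of all rows did. Over all rows the median log2 difference was -0.03, 0.03 and 0.01 for the 3 hairpins in this order, and over the 65 genes it was 0.04, 0.07 and 0.08. Scaling moved some of these splits. With shCREBBP.1027 upper-quartile scaling gave 20 higher and 9 lower genes and quantile normalization gave 22 and 10, and over all rows they gave 2604 higher and 2371 lower, and 2723 and 2457, against 1938 and 2671 without scaling. With shCREBBP.572 they gave 7 higher and 3 lower, and 9 higher and 4 lower, which turns the order of the 2 counts round. Over all rows the order turned round as well, with 1511 higher and 1270 lower, and 1474 and 1365, against 1057 and 1266 without scaling.

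Of 10 tested genes for proteins of RNase P and RNase MRP, limma called 4 higher and none lower with shCREBBP.1027, and 6 were not called. Of all rows 16.5% were higher and 22.7% lower. At limma's unadjusted p under 0.05 likewise 0 were lower, and the list median was 0.17. RPP40, a subunit of these enzymes, averaged 29.6 ± 2.87 FPKM with shCREBBP.1027, 16.7 ± 0.937 for shCREBBP.3753 and 17.5 ± 3.15 for shCREBBP.572, against 17.5 ± 4.03 with scramble (SD, n = 3 each). Its shCREBBP.1027 difference was 0.74 ± 0.15 (SE, limma adjusted p = 0.00287). RPP14, another subunit, rose by 0.55 with the same hairpin (limma adjusted p = 0.00333). The fourth higher gene, POP4, rose by 0.50 (limma adjusted p = 0.00313) and was named after its values were seen. With shCREBBP.3753, RPP25L and RPP38 were the 2 higher genes and POP7 the single lower one (all rows 16.1% and 13.2%). RPP25L, a subunit paralogue, had 34.9 ± 4.77 FPKM with shCREBBP.3753 against 21.4 ± 4.56 FPKM with scramble, a difference of 0.69 (limma adjusted p = 0.0106). RPP38 rose by 0.61 with shCREBBP.3753 (limma adjusted p = 0.00199) and by 0.39 with shCREBBP.1027 (limma adjusted p = 0.0152), and the second call was lost without shCREBBP.1027 replicate 2 (limma adjusted p = 0.066). POP7 fell by 0.78 with shCREBBP.572 (limma adjusted p = 0.00235), the only gene of the list called with that hairpin, and by 0.47 with shCREBBP.3753 (limma adjusted p = 0.0254). The call with shCREBBP.3753 was lost without any 1 of the 3 shCREBBP.3753 libraries, without scramble replicate 2 or without scramble replicate 3 (limma adjusted p = 0.0539 to 0.0859), and also with no filter on low rows (0.051) or with only the compared groups in the fit (0.0693).

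In the particle that holds RN7SK, 3 of 9 genes were higher and 1 lower with shCREBBP.1027 (all rows 16.5% and 22.7%), with a median of 0.34. CCNT2, a cyclin of P-TEFb, had 32.3, 31.2 and 29.8 FPKM with shCREBBP.1027, 13.8, 14.4 and 14.8 FPKM with shCREBBP.3753 and 15.5, 13.9 and 14.1 FPKM with shCREBBP.572, against 14.7, 13.7 and 13.7 FPKM with scramble. Its 3 shCREBBP.1027 libraries lay above all others, a difference of 1.09 ± 0.07 (SE, limma adjusted p = 9.36e-07). CDK9, the kinase that CCNT2 partners, fell by 0.46 with shCREBBP.1027 (limma adjusted p = 0.00611). AFF4, a scaffold that carries P-TEFb to transcribed genes, rose by 0.34 with shCREBBP.1027 (limma adjusted p = 0.00621) and by 0.43 with shCREBBP.3753 (limma adjusted p = 0.00239). HEXIM1, the P-TEFb inhibitor of the particle, rose by 0.57 with shCREBBP.3753 (limma adjusted p = 0.0157), and its shCREBBP.1027 difference was 0.38 (limma adjusted p = 0.0644, but 0.0149 without scramble replicate 1 and 0.0213 with quantile normalization). The HEXIM1 call was lost without shCREBBP.3753 replicate 2 or scramble replicate 3 (limma adjusted p = 0.0521 to 0.0668) and with only the compared groups in the fit (0.0745). LARP7, which binds the end of the RNA, had a difference of 0.34 with shCREBBP.1027 near the threshold (limma adjusted p = 0.0491). That call was lost on leaving out any 1 of 9 libraries, namely all but shCREBBP.572 replicates 2 and 3 and scramble replicate 2 (limma adjusted p = 0.0541 to 0.149). It was lost too with no filter (0.0833) and with only the compared groups (0.0859).

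Of the vault proteins and factors that process vault RNA, 6 of 7 genes had a row. Limma called 1 higher and 1 lower with shCREBBP.1027 (all rows 16.5% and 22.7%). It called 2 higher and 0 lower with shCREBBP.3753 (16.1% and 13.2%), and 1 higher and 1 lower with shCREBBP.572 (8.99% and 10.8%). At limma's unadjusted p under 0.05 the count of 0 was also 0. TEP1, a protein of vaults and of telomerase, was higher with each hairpin. It had 10.96, 11.6 and 12.4 FPKM with shCREBBP.1027, 11.5, 12.1 and 15.5 FPKM with shCREBBP.3753 and 10.6, 12.7 and 11.2 FPKM with shCREBBP.572, against 9.33, 6.72 and 8.56 FPKM with scramble. Every hairpin library lay above every scramble library. What share of all rows separated in this way was not examined. Nor was the share called alike with every hairpin, here or for POU2F1 and GTF3C4 below. The differences were 0.47 with shCREBBP.1027 (limma adjusted p = 0.0139), 0.61 with shCREBBP.3753 (limma adjusted p = 0.00498) and 0.45 with shCREBBP.572 (limma adjusted p = 0.0311). They share the same scramble libraries, and those between hairpins did not pass the F test (limma adjusted p = 0.485). The shCREBBP.1027 call was lost without shCREBBP.1027 replicate 3 or scramble replicate 2 (limma adjusted p = 0.0513 to 0.0541). The shCREBBP.572 call was lost without shCREBBP.572 replicate 2 or 3 or scramble replicate 2 or 3 (limma adjusted p = 0.0569 to 0.111), with no filter (0.0673) and with only the compared groups (0.102). TEP1 is also the next locus after that of RPPH1 on chromosome 14 (chr14:20833686-20881690).

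MVP, the protein that makes up most of a vault, shared its row with PAGR1. The row had 18.6 ± 1.13 FPKM with shCREBBP.1027, 19.8 ± 3.30 for shCREBBP.3753 and 14.0 ± 1.28 for shCREBBP.572, against 17.6 ± 1.46 with scramble (SD, n = 3 each), and no difference from scramble was called. The lowest p was with shCREBBP.572, at a difference of -0.31 (limma adjusted p = 0.0794), and it passed without shCREBBP.3753 replicate 2 or scramble replicate 1 (0.0419 to 0.0437). PARP4, the vault poly(ADP-ribose) polymerase, rose by 0.30 with shCREBBP.3753 (limma adjusted p = 0.00751). NSUN2, which methylates vault RNA before its processing, fell by 0.29 with shCREBBP.1027 (limma adjusted p = 0.00496) and by 0.22 with shCREBBP.572 (limma adjusted p = 0.036). The second NSUN2 call was lost on leaving out any 1 of 9 libraries, namely all but shCREBBP.1027 replicate 2 and scramble replicates 1 and 3 (limma adjusted p = 0.0503 to 0.12), and with only the compared groups (0.162). SSB, the La protein that binds new RNA polymerase III transcripts, had differences of 0.20 with shCREBBP.1027, 0.16 for shCREBBP.3753 and 0.19 for shCREBBP.572 that did not pass the test (limma adjusted p = 0.237, 0.365 and 0.328). The first of these passed with upper-quartile scaling (0.0352) and quantile normalization (0.0247).

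Among 10 proteins of the U1 particle, 2 were higher and 2 lower with shCREBBP.1027 (all rows 16.5% and 22.7%). With shCREBBP.3753 none was higher and 3 were lower (all rows 16.1% and 13.2%), and with shCREBBP.572 none was called (8.99% and 10.8%). By limma's unadjusted p under 0.05 these counts of 0 were also 0. SNRPC, specific to this particle, had 178 ± 15.7 FPKM with shCREBBP.1027 against 123 ± 22.4 FPKM with scramble, a difference of 0.54 (limma adjusted p = 0.00514). SNRPA, which binds a stem loop of U1, had 93.4 ± 2.18 FPKM with shCREBBP.1027, 88.8 ± 3.52 for shCREBBP.3753 and 132 ± 4.11 for shCREBBP.572, against 122 ± 9.81 with scramble (SD, n = 3 each). It fell by 0.38 with shCREBBP.1027 (limma adjusted p = 0.00168) and by 0.45 with shCREBBP.3753 (limma adjusted p = 0.00102). SNRNP70, which binds the first stem loop of U1, fell by 0.46 with shCREBBP.1027 (limma adjusted p = 2.77e-04) and by 0.29 with shCREBBP.3753 (limma adjusted p = 0.00728, but 0.0536 with only the compared groups), and was named after its values were seen. SNRPD2 and SNRPB are Sm ring proteins common to several particles. SNRPD2 rose by 0.57 with shCREBBP.1027 (limma adjusted p = 0.0166), a call lost without shCREBBP.1027 replicate 2 (0.0613) and with only the compared groups (0.093). SNRPB fell by 0.38 with shCREBBP.3753 (limma adjusted p = 0.022), a call lost without any 1 of the 3 shCREBBP.3753 libraries, without scramble replicate 2 or without scramble replicate 3 (limma adjusted p = 0.057 to 0.0644) and with only the compared groups (0.0925).

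RNA polymerase III and its factors made the longest list, with 30 genes. With shCREBBP.1027, 4 were higher and 6 lower (all rows 16.5% and 22.7%). With shCREBBP.3753 4 were higher and 5 lower (all rows 16.1% and 13.2%), and with shCREBBP.572 1 was higher and 3 lower (8.99% and 10.8%). The largest differences on the list, up to 2.20 with shCREBBP.3753, came from genes at 0 in scramble replicate 3. They were not called, and such a 0 may be an estimate that failed. BRF2, the initiation factor used at RNA polymerase III promoters that lie upstream of the gene, such as those of RMRP, RPPH1 and RN7SK, showed the largest difference among the called genes of the list. It had 16.2, 14.5 and 13.3 FPKM with shCREBBP.1027, 5.25, 6.93 and 6.29 FPKM with shCREBBP.3753 and 4.86, 4.27 and 6.03 FPKM with shCREBBP.572, against 3.70, 7.41 and 6.23 FPKM with scramble. The shCREBBP.1027 libraries lay above all others, and the other groups overlapped. The difference was 1.25 ± 0.19 with shCREBBP.1027 (SE, limma adjusted p = 4.10e-04), 0.11 with shCREBBP.3753 (limma adjusted p = 0.694) and -0.13 with shCREBBP.572 (limma adjusted p = 0.686).

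SNAPC4, the large subunit of the complex that binds the proximal element of the same promoters, rose by 0.64 with shCREBBP.1027 (limma adjusted p = 0.0239). This call was lost without shCREBBP.1027 replicate 1 or 3 or scramble replicate 2 or 3 (limma adjusted p = 0.074 to 0.0916), with no filter (0.0542) and with only the compared groups (0.0578). POU2F1, which binds their octamer element, was lower with each hairpin, with 9.004 ± 1.07 FPKM with shCREBBP.1027, 7.71 ± 0.151 for shCREBBP.3753 and 9.58 ± 0.424 for shCREBBP.572, against 12.5 ± 1.20 with scramble (SD, n = 3 each). Its differences were -0.43 with shCREBBP.1027 (limma adjusted p = 0.00375), -0.62 with shCREBBP.3753 (limma adjusted p = 6.83e-04) and -0.34 with shCREBBP.572 (limma adjusted p = 0.0239). The last of these was lost without shCREBBP.572 replicate 2 or 3 or scramble replicate 1 (limma adjusted p = 0.0531 to 0.0769), with no filter (0.0501), with upper-quartile scaling (0.0738) and with only the compared groups (0.0864). BRF2, SNAPC4 and POU2F1 thus moved in different directions with shCREBBP.1027.

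POLR3G, an alternative subunit of the polymerase seen in stem and tumour cells, fell by 0.54 with shCREBBP.1027 (limma adjusted p = 0.00191). It had 17.4 ± 1.94 FPKM with shCREBBP.1027, 23.6 ± 3.41 for shCREBBP.3753 and 30.4 ± 1.99 for shCREBBP.572, against 25.7 ± 1.24 with scramble (SD, n = 3 each). GTF3A, the factor for 5S ribosomal RNA genes, rose by 0.49 with shCREBBP.3753 (limma adjusted p = 0.0164) and by 0.51 with shCREBBP.572 (limma adjusted p = 0.019). The first call was lost without shCREBBP.3753 replicate 2 (0.0546) and the second without shCREBBP.572 replicate 1 or 2 (limma adjusted p = 0.0545 to 0.0633), and with only the compared groups neither held (0.0773 and 0.106). GTF3C2, of the complex that binds the B box, fell by 0.38 with shCREBBP.572 (limma adjusted p = 0.0043).

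The remaining called genes in the counts of 5 or fewer on this list were named after their values were seen. With shCREBBP.1027 the subunit POLR3F rose by 0.39 (limma adjusted p = 0.0195) and TBP, the TATA-binding protein, by 0.59 (0.0146). With shCREBBP.3753 GTF3C3 rose by 0.42 (limma adjusted p = 0.0111), and SNAPC3 by 0.44 (0.00764), while the subunit POLR3K fell by 0.28 (0.0417), BRF1 by 0.31 (0.0303), GTF3C4 by 0.37 (0.00306) and SNAPC2 by 0.31 (0.0267). GTF3C4 also fell by 0.29 with shCREBBP.1027 (limma adjusted p = 0.00808, but 0.0587 with upper-quartile scaling) and by 0.23 with shCREBBP.572 (limma adjusted p = 0.0454). SNAPC5 shared its row with RPL4, a ribosomal protein gene, and the 2 cannot be told apart there. That row had 1152 ± 66.2 FPKM with shCREBBP.1027, 2354 ± 151 for shCREBBP.3753 and 1777 ± 91.6 for shCREBBP.572, against 1776 ± 344 with scramble (SD, n = 3 each). It fell by 0.61 with shCREBBP.1027 (limma adjusted p = 0.00473, but 0.0533 with only the compared groups) and rose by 0.42 with shCREBBP.3753 (limma adjusted p = 0.0372). BRF1 is the counterpart of BRF2 at promoters inside the gene, such as those of the vault RNAs. The calls of GTF3C3, SNAPC3 and, with shCREBBP.3753, GTF3C4 held in every alternative tried. The TBP call held whichever library was left out but was lost with only the compared groups (0.0822). POLR3F was lost without shCREBBP.1027 replicate 2 or 3 or scramble replicate 1 (limma adjusted p = 0.0545 to 0.0654) and with only the compared groups (0.0508). BRF1 was lost without any 1 shCREBBP.3753 library or scramble replicate 1 or 2 (limma adjusted p = 0.0557 to 0.106), and SNAPC2 without shCREBBP.3753 replicate 1 or 3 or scramble replicate 3 (0.0594 to 0.109). With only the compared groups BRF1 (0.0626) and SNAPC2 (0.0903) were lost, and BRF1 also with no filter (0.0624). The 3 calls nearest to the threshold were lost on leaving out most single libraries. POLR3K was lost without 9 of them, all but shCREBBP.3753 replicate 2, shCREBBP.572 replicate 3 and scramble replicate 1 (limma adjusted p = 0.052 to 0.129). The row of SNAPC5 and RPL4 with shCREBBP.3753 was lost without 8, all but shCREBBP.1027 replicate 2 and the scramble libraries (0.0509 to 0.125), and GTF3C4 with shCREBBP.572 without 11, all but shCREBBP.3753 replicate 3 (0.0539 to 0.119). With no filter and with only the compared groups POLR3K (0.0634 and 0.12), the SNAPC5 row (0.178 and 0.166) and GTF3C4 with shCREBBP.572 (0.059 and 0.127) were lost too. The last was also lost with a pseudocount of 0.1 (0.0508), either scaling (0.118 and 0.0696) and a replicate block (0.0545).

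**Figure D3:**
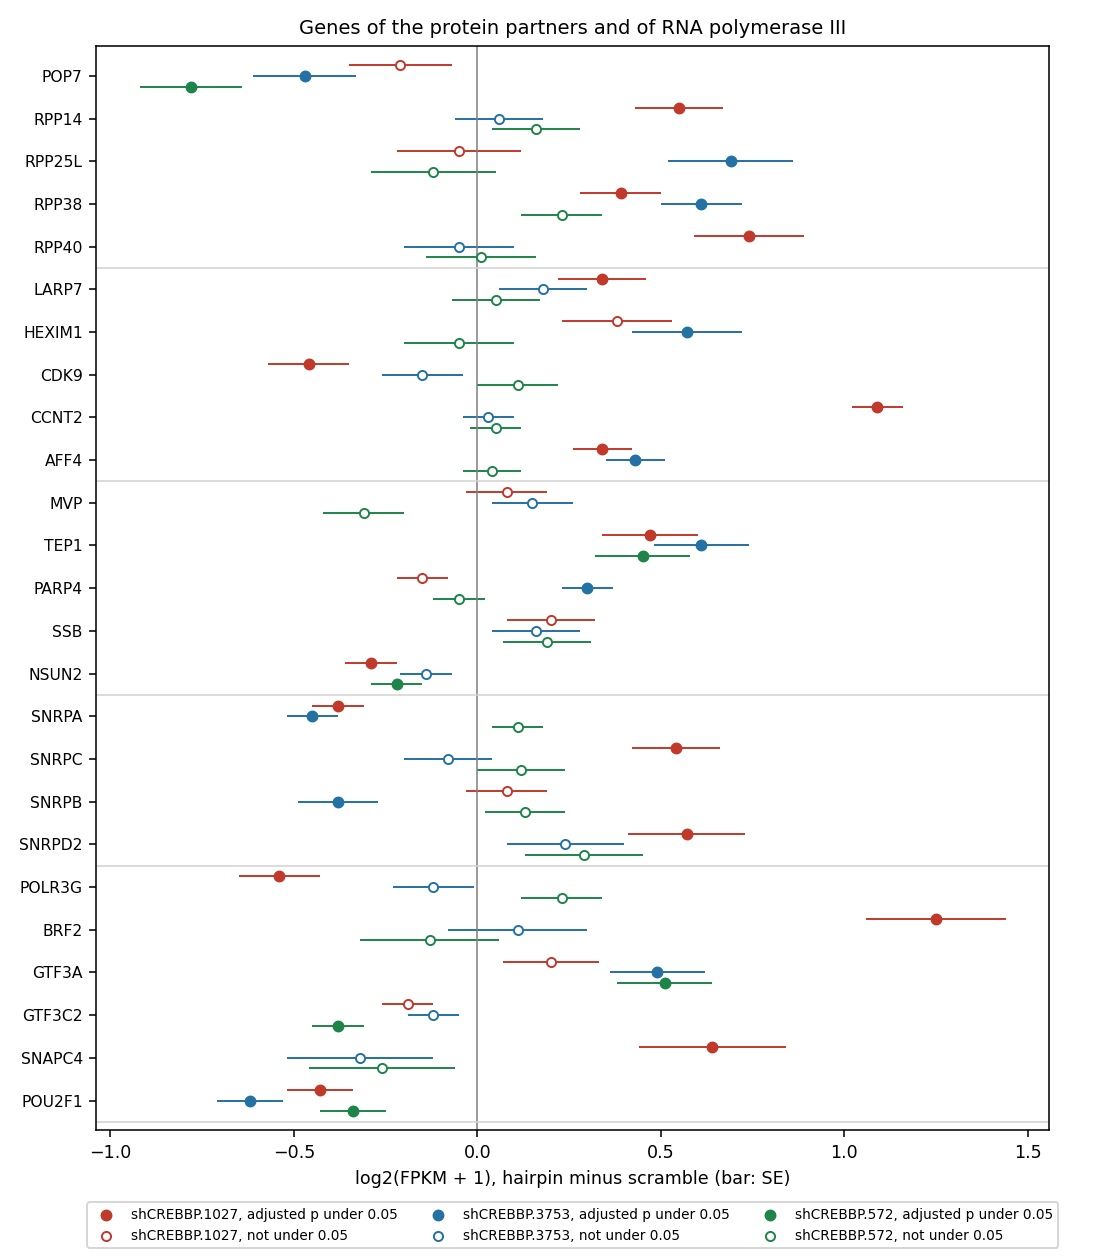
Difference of each hairpin from scramble, in log2(FPKM + 1) with its SE, for named genes of the 5 lists (from the top: RNase P and MRP proteins, the RN7SK particle and P-TEFb, vault, U1 particle, RNA polymerase III). Genes named after their values were seen are not drawn, among them GTF3C4, which was called lower with every hairpin. Filled points had a limma adjusted p under 0.05. Of the genes drawn, CCNT2 at 1.09 and BRF2 at 1.25 lie farthest to the right, both with shCREBBP.1027, and TEP1 and POU2F1 are filled for every hairpin.

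Other structural RNAs were rarely measured: of 41 names 30 had no row used, 3 had a mean under 1 FPKM and 8 were tested. TERC, the template RNA of telomerase and well over 200 nt, followed the groups as RPPH1 did. It had 597, 656 and 594 FPKM with shCREBBP.1027, 316, 292 and 261 FPKM with shCREBBP.3753 and 283, 296 and 255 FPKM with shCREBBP.572, against 268, 294 and 354 FPKM with scramble. The shCREBBP.1027 libraries lay above all others, and the difference was 1.02 ± 0.11 (SE, limma adjusted p = 4.17e-05). The highest of 5 rows named BCYRN1, after a brain cytoplasmic RNA made by RNA polymerase III, lay on a wide locus (chrX:70430035-70948962, hg19). Whether its values are those of that RNA was not tested. This row had 167 ± 56.4 FPKM with shCREBBP.1027, 134 ± 12.3 for shCREBBP.3753 and 117 ± 6.53 for shCREBBP.572, against 77.4 ± 5.13 with scramble (SD, n = 3 each). It rose by 1.03 with shCREBBP.1027 (limma adjusted p = 0.00236) and by 0.78 with shCREBBP.3753 (limma adjusted p = 0.0155), and its difference with shCREBBP.572 was 0.59 (limma adjusted p = 0.068). That difference passed with upper-quartile scaling (limma adjusted p = 0.047), with only the compared groups (0.0146) and without shCREBBP.1027 replicate 1 (0.00139). The shCREBBP.3753 call was lost without shCREBBP.3753 replicate 2 or 3 or scramble replicate 3 (limma adjusted p = 0.0503 to 0.0566).

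Of 4 small nuclear RNAs of the minor spliceosome, which removes a rare class of introns, 3 were called lower with shCREBBP.1027 (all rows 22.7%). The RNU11 call did not hold under 2 alternatives given below. RNU11 had 4789, 4649.95 and 4193 FPKM with shCREBBP.1027, 9727, 8330.1 and 11803 FPKM with shCREBBP.3753 and 15416, 17825 and 20013 FPKM with shCREBBP.572, against 11308, 16060.4 and 13644 FPKM with scramble. Its shCREBBP.1027 libraries were the lowest of all, a difference of -1.58 ± 0.18 (SE, limma adjusted p = 6.30e-05). RNU12 had 1057, 999 and 407 FPKM with shCREBBP.1027, 4995, 4131 and 5739.85 FPKM with shCREBBP.3753 and 6130.5, 6115 and 7252 FPKM with shCREBBP.572, against 3057, 4505 and 4305 FPKM with scramble. It fell by 2.37 with shCREBBP.1027 (limma adjusted p = 1.44e-04), where its libraries did not overlap those of any other group. RNU4ATAC fell by 1.74 with the same hairpin (limma adjusted p = 0.0028), and no difference of RNU6ATAC was called. The RNU11 call was lost with no filter on low rows (limma adjusted p = 0.244), and under quantile normalization its difference was 0.01 (limma adjusted p = 0.99). The highest of 16 rows named RNU5E-1 lay on a wide locus (chr5:80243512-81047072, hg19), and whether its values are those of that RNA was not tested. This row fell by 1.15 with shCREBBP.3753 (limma adjusted p = 0.0275). That call was lost without shCREBBP.3753 replicate 1 or 3 or scramble replicate 1 or 2 (limma adjusted p = 0.0717 to 0.106), with no filter (0.0655) and with only the compared groups (0.0569). RNU5F-1 was at 0 in at least 1 library of each group and was not called. These RNAs are shorter than 200 nt, as the vault RNAs and RNVU1-19 are, whereas TERC, RMRP and RPPH1 are longer.

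**Figure D4:**
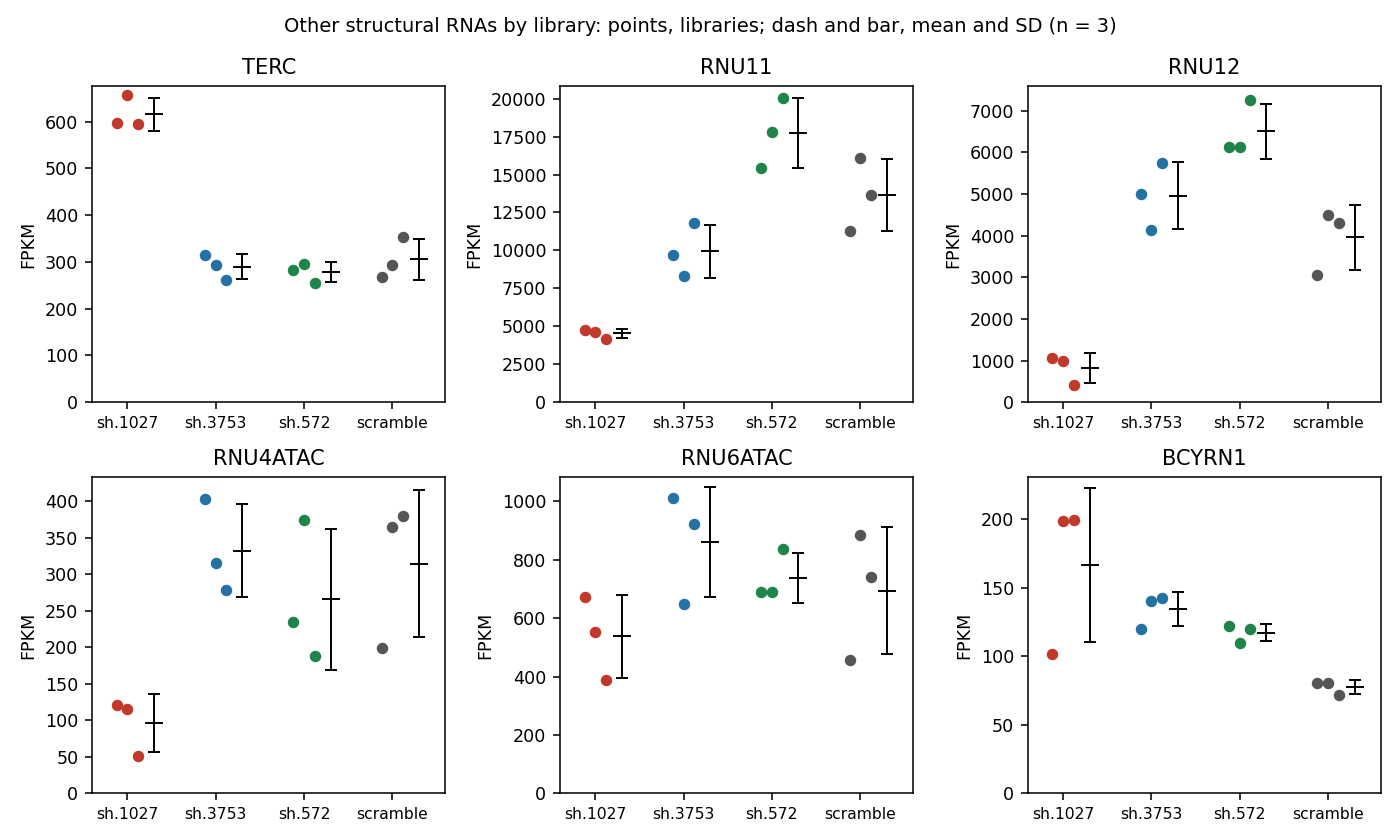
FPKM of 6 other structural RNAs by group (shCREBBP.1027, shCREBBP.3753, shCREBBP.572, scramble); points are libraries, and the dash with its bar is the mean and SD of 3. With shCREBBP.1027 TERC lies at 594 to 656 FPKM, above all other libraries, and RNU11 and RNU12 lie below all others.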

How the data were processed

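RNA was measured in 12 libraries of MD901 cells, 3 with each of 3 hairpins against CREBBP and 3 with a scramble hairpin. The authors deposited a table with 1 value per locus and library, read here as FPKM because the submitters' processing notes name Cufflinks, besides CASAVA 1.8, TopHat2 and hg19. The table itself names no unit. The sources used here give neither the annotation nor whether strand was used in counting. Depth is unknown in reads, so no counting interval is given, and a value of exactly 0 may be an estimate that failed.

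Groups were taken from the labels. Tests used log2(FPKM + 1) with no added scaling on 11757 rows (mean of 1 or more), by limma 3.58.1 in R 4.3.3, 4 group means, a variance trend and Benjamini-Hochberg adjustment over all rows of a contrast, threshold 0.05. This scale understates changes of low rows. An F test compared the 3 hairpins. The test was tested on simulated data. A gene was represented by its highest row. Rows with several names, overlapping genes and near-identical copies are uncertain. Alternatives were a pseudocount of 0.1, a mean of at least 5, no filter, upper-quartile scaling, quantile normalization, only the compared groups, a replicate block, and leaving out each library.

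The members and lists were chosen with earlier results of these data known. The members have no test, because those contrasts chose them. Of the 5 lists of partner genes the text names up to 2 called genes per list and hairpin with the largest difference, and always MVP, LARP7, HEXIM1, SSB and POLR3G. It also names CREBBP, the other structural RNAs with a tested row, the 3 rows nearest in pattern to each member, and called genes needed to account for counts of 5 or fewer, which were chosen after their values were seen. Sequences come from GENCODE 29 (GRCh38), coordinates of rows from the table (hg19, counted from 1, interval of the assembled locus), and the 2 builds were not mixed. Sequences were compared with Biopython 1.88.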

Additional observations from a re-analysis of the deposited data

Results flagged for a closer look

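The values below are results in which the 3 hairpins differed from one another by limma's F test, with p-values adjusted over all 11757 rows. Of the 45 tested genes named above, 33 passed it. Most of them were named for their differences, so this share is not read against that of other rows. No explanation was weighed, and the members themselves were not tested.

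Among proteins of RNase P and RNase MRP, the adjusted p between hairpins was 0.00178 for RPP40, 0.009 for RPP14, 0.00329 for POP4, 0.00284 for RPP25L, 0.0325 for RPP38 and 0.0121 for POP7. RPP40, RPP14 and POP4 were highest with shCREBBP.1027, and RPP25L and RPP38 with shCREBBP.3753. In the RN7SK particle and P-TEFb it was 6.71e-07 for CCNT2, 0.00299 for CDK9, 0.0121 for HEXIM1 and 0.00371 for AFF4. CCNT2 was higher with shCREBBP.1027 than with shCREBBP.3753 by 1.06 and than with shCREBBP.572 by 1.05 on the log2 scale. For vault proteins it was 5.19e-04 for PARP4 and 0.00921 for the row of MVP. For proteins of the U1 particle it was 0.00371 for SNRPC, 1.10e-04 for SNRPA, 9.69e-04 for SNRNP70 and 0.0033 for SNRPB.

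Among RNA polymerase III and its factors the adjusted p between hairpins was 2.26e-04 for BRF2, 0.00238 for SNAPC4, 0.0271 for GTF3C2, 3.08e-04 for POLR3G, 0.00532 for BRF1, 0.0144 for GTF3C3, 0.0489 for POLR3K, 0.00595 for SNAPC2, 0.00116 for SNAPC3, 2.46e-04 for the row that SNAPC5 shares with RPL4 and 0.0327 for TBP. POLR3G differed in every pair of hairpins, rising by 0.42 with shCREBBP.3753 over shCREBBP.1027 (limma adjusted p = 0.00829), by 0.78 with shCREBBP.572 over shCREBBP.1027 (1.57e-04) and by 0.36 with shCREBBP.572 over shCREBBP.3753 (0.0236). Among other structural RNAs it was 1.32e-05 for TERC, 2.22e-05 for RNU11, 1.98e-05 for RNU12, 0.00233 for RNU4ATAC and 0.0179 for RNU5E-1. RNU11 also differed in every pair, by 1.12 for shCREBBP.3753 over shCREBBP.1027, 1.96 for shCREBBP.572 over shCREBBP.1027 and 0.84 for shCREBBP.572 over shCREBBP.3753. CREBBP itself had an adjusted p of 0.0116 between hairpins.

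These calls between hairpins held under every alternative tried for 25 of the 33 genes. The calls of RPP38, HEXIM1, GTF3C2, RNU5E-1, RNU11, GTF3C3, POLR3K and TBP were each lost under at least 1. HEXIM1 was lost without shCREBBP.572 replicate 2 (limma adjusted p = 0.0531) and GTF3C3 without shCREBBP.1027 replicate 3 (0.0706). RNU11 was lost with no filter (0.233) and with quantile normalization (0.349). RPP38 was lost without shCREBBP.1027 replicate 1, shCREBBP.3753 replicate 1 or 3, or shCREBBP.572 replicate 1 or 2 (0.0502 to 0.107). GTF3C2 was lost without shCREBBP.3753 replicate 2 or 3 or shCREBBP.572 replicate 1 or 2 (0.06 to 0.116), and RNU5E-1 without shCREBBP.1027 replicate 3 or shCREBBP.3753 replicate 1 or 3 (0.0556 to 0.0691). POLR3K was lost without any 1 hairpin library but shCREBBP.3753 replicate 2, or without scramble replicate 3 (0.0548 to 0.162), and TBP without any 1 hairpin library but shCREBBP.572 replicate 3 (0.0522 to 0.102).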

How the results depend on the processing

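Depth in reads is unknown, each group has 3 libraries, and the rows of short RNAs rest on an extraction that kept RNA over 200 nt. Of the 55 calls of named genes against scramble, 29 held under every alternative tried and 26 were lost under at least 1. Of the 80 differences of named genes that were not called, 17 passed under at least 1 with their sign unchanged. TBP with shCREBBP.3753 passed with its sign reversed, as given below. Counts of partner genes called against scramble were lower when the fit held only the compared groups, with fewer samples to estimate the spread: 9 higher with shCREBBP.1027 (14 in the fit of all 4 groups), 3 lower with shCREBBP.3753 (9), and 0 higher and 2 lower with shCREBBP.572 (2 and 5); at limma's unadjusted p under 0.05 that fit gave 4 higher and 6 lower with shCREBBP.572. With shCREBBP.1027 quantile normalization gave 22 higher. With shCREBBP.572 no filter gave 1 higher and 3 lower, upper-quartile scaling 7 higher and 3 lower, and quantile normalization 9 higher, and the cause was not tested. Over all rows both scalings also raised the number called higher with shCREBBP.572, to 1511 and 1474 from 1057 without scaling. With 1 library left out, counts ran from 10 to 15 higher and 9 to 16 lower with shCREBBP.1027, from 7 to 13 higher and 4 to 12 lower with shCREBBP.3753, from 1 to 3 higher and 2 to 7 lower with shCREBBP.572, and from 29 to 45 between hairpins. The libraries that moved a count by over 1.5 times were scramble replicate 1 (16 lower with shCREBBP.1027), shCREBBP.3753 replicates 1 and 3 (4 lower each with that hairpin), each shCREBBP.572 library and scramble replicate 3 (1 higher each with shCREBBP.572), and, for 2 or 3 lower with shCREBBP.572, shCREBBP.1027 replicates 1 and 3, shCREBBP.3753 replicate 1, each shCREBBP.572 library and scramble replicate 2. Of differences called in either fit, those of 2 genes turned round: RNU11 with shCREBBP.1027 was 0.01 under quantile normalization (limma adjusted p = 0.99), and TBP with shCREBBP.3753, not called otherwise, was -0.21 without scramble replicate 1 (limma adjusted p = 0.0408) and up to 0.18 without another library. Of the 80 differences not called, 28 changed sign under at least 1 alternative. Quantile normalization also moved RMRP to 1.38 with each hairpin and RPPH1 to 0.98 with shCREBBP.3753 and shCREBBP.572, since it works by rank and these rows rank seventh and eighth in scramble replicate 3.

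The replicate numbers did not pair the libraries: of 18 same-numbered pairs of libraries 2 had correlated deviations above 0.1 (-0.060 to 0.127), and other pairs gave -0.202 to 0.128. With a replicate block the counts were 16 higher and 10 lower with shCREBBP.1027, 10 and 9 with shCREBBP.3753, 2 and 4 with shCREBBP.572, and 36 between hairpins.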
